A study of Mus musculus with 74 samples.

Results

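The arrays described here are those of the line S2KO that were given TGF-β for 1 or 4 h. The members were all arrays titled S2KO at 4 h (3 arrays) or at 1 h (3 arrays), which is 6 of the 74 arrays of the series. The 3 S2KO arrays at 2 h served as a middle point. The question is which genes moved between 1 and 4 h of TGF-β, either early and passing or late and building up.

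Each array is a dual-channel mouse array of 8976 probes and gives, per probe, the log2 ratio of cells given TGF-β over cells of the same line and time without it. All S2KO arrays used thus set treated S2KO cells against untreated S2KO cells at 1, 2 or 4 h. The 2 lines used for comparison were S2WT and S3WT, each with 3 arrays at 4 h and 3 at 1 h and treated and untreated cells of the same line in the 2 channels. The series also holds arrays of the line S3KO and arrays titled S2WT_vs_U0126. These served here only, together with all others, to estimate the spread between arrays. The labels spell out neither S2 nor S3, and give no strain, tissue, cell type, clone or dose of TGF-β. In the published study of this design S2 and S3 stand for Smad2 and Smad3 and the cells are fibroblasts, with the knockout cells lacking the gene named. The S2WT arrays titled 4 h carry a 2 h label in both channels, so their true time is uncertain. No label says which channel is on top of the ratio. Treated over untreated is likely, since it puts known TGF-β targets above 0, but it is not certain. That such targets lie above 0 below therefore rests on this choice and is not a separate result. The labels do not say that replicate arrays came from separate cultures, so p-values measure only the spread between arrays.

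TGF-β binds a pair of receptor kinases at the cell surface, which phosphorylate Smad2 and Smad3. These join Smad4, enter the nucleus and change transcription together with partner factors, and among the first targets are genes whose products damp the pathway again. In fibroblasts TGF-β is known for inducing matrix, contractile and adhesion genes over hours, after a first wave of immediate early genes. Both Smads take part in this, and Smad3 but not the common form of Smad2 binds DNA by itself, so S2KO cells keep a Smad that does so.

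The S2KO arrays gave values for 8038 to 8571 of the 8976 probes, and each array was centred on its median, which had ranged from -0.60 to 0.038 in the deposited values. A change below is the mean at 4 h minus the mean at 1 h on the log2 scale, so that 1 means a 2-fold higher ratio, and is given ± its SE. It compares 2 ratios to untreated cells, not 2 absolute levels. One 4 h array stood apart: among the 58 called probes with all 3 values at 4 h, replicate 2 lay nearest to the 1 h side in 52 (89.7%), against 47.3% over the 7437 such probes among all tested. The interquartile range of its values was 0.70, against 0.852 in replicate 1 and 0.865 in replicate 3 of 4 h. What sets it apart was not tested. Smad2 itself has no probe of its own among the single symbols, and a ratio within a line would not check the knockout. The labels name no cell type, and ratios do not give the levels by which one could be checked. None of the 7 tested fibroblast marker probes, 1 epithelial, 2 leukocyte and 3 endothelial marker probes was called, with median changes of -0.40, -0.34, 0.74 and -0.46.

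Few probes were called. Of 8500 probes tested, limma with Benjamini-Hochberg adjustment at an adjusted p under 0.05 called 64 between 4 and 1 h (0.753%). Of these 64, 39 were higher at 4 h (0.459%) and 25 lower (0.294%). With 3 arrays at each time, a small number of calls does not show that few probes moved. The median change over all tested probes was 0.022, and 786 probes had an unadjusted p under 0.05. Of the 64, 51 probes of 50 genes have a single gene symbol that is not a clone name, 32 of them higher and 19 lower. For 15 of these genes 17 further probes were tested, of which 15 had the sign of the called probe and 1 was itself called. The called probe is the one of lowest p, so its change is a selected value. The calls rest on a spread estimated over all 74 arrays: fitted on the S2KO arrays alone, or on the 6 arrays alone, limma called 0 probes, with 504 and 412 at an unadjusted p under 0.05. Without 4 h replicate 2 it called 208 probes, 58 of the 64 among them, and without any other single array between 18 and 85. Replicate 2 was singled out on these called probes, so values given below without it are a description. Leaving out 1 array made the change over 1.5 times smaller in 9 of the 51 probes, those of Auh, Ebf1, Eif2ak3, Hbegf, Hdac5, Magee1, Necap1, Osmr and Pitpnb. A probe left with fewer than 2 values at a time could not be tested. Such fits are missing for Ebf1, Lin52, Mgme1, Neil3, Oas2, Spns2 and St8sia2, so the count does not fully cover how far these rest on 1 array. Without centring it called 209, with 196 higher and 13 lower, as the median of all probes then shifts to 0.32.

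**Figure D1:**
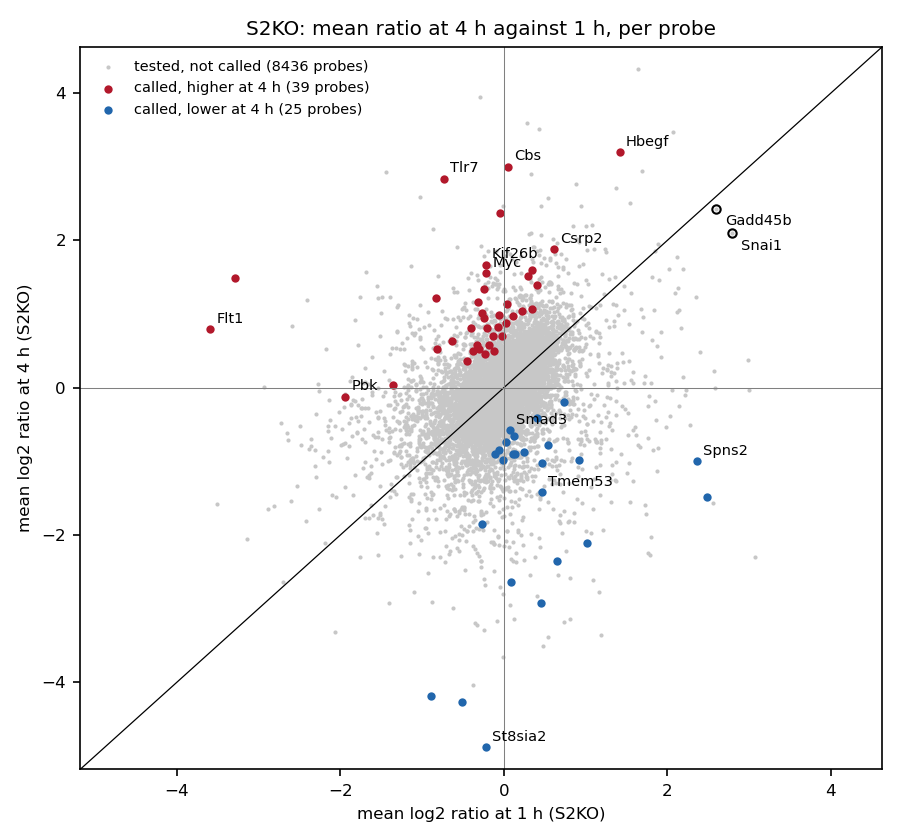
Mean log2 ratio of each tested probe at 4 h (vertical axis) against 1 h (horizontal axis) in S2KO, with the diagonal marking no change. Of the 64 called probes, 39 lie above the diagonal and 25 below it, while Gadd45b and Snai1 lie near it at high values at both times.

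Most called probes were farther from 0 at 4 h than at 1 h. Of the 39 higher probes, 33 had a mean at 4 h farther from 0 than at 1 h, and 6 started low at 1 h and came back towards 0. Of the 25 lower probes, 22 were farther from 0 at 4 h, and 3 were high at 1 h and lower later, namely Spns2, Hdac5 and the clone Gm4952. The mean at 2 h lay between those at 1 and 4 h in 33 of the higher and 20 of the lower probes. The step between 2 and 4 h, which covers the longer time, was the larger in 45 probes and the step between 1 and 2 h in 18. These counts describe the called probes alone, and the same shares were not taken over all tested probes. The interquartile range of the values was 0.886, 0.69 and 0.52 on the 1 h arrays and 0.852, 0.70 and 0.865 on the 4 h arrays. Whether this spread bears on the distance from 0 was not tested. The arrays of 4 h and 1 h did not overlap in 54 of the 64, against 1283 of all 8500 tested.

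Tested as steps of their own, limma called 9 of 8508 probes between 2 and 1 h (0.106%), 6 higher at 2 h (0.0705%) and 3 lower (0.0353%). It called 67 of 8445 probes between 4 and 2 h (0.793%), 45 higher at 4 h (0.533%) and 22 lower (0.261%). Of the 64 probes called between 4 and 1 h, 16 were also called between 4 and 2 h and 2 between 2 and 1 h. These steps share arrays with the main comparison, so the overlap is a description. The 2 are Pdha1 and Spns2, and the 16 are Kif26b, Tmem53, Pbk, Tlr7, Fam98a, St8sia2, Timm17a, Eif1a, Nip7, Gm9797, Eif2ak3, Smad3, Sh3bp5, Oas2, Srprb and Magee1.

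Few probes were high on all arrays of a time. Above 1 on all 3 arrays were 7 probes at 1 h, 38 at 2 h and 16 at 4 h, and below -1 on all 3 were 15, 17 and 35. Exactly 2 probes were above 1 on all 9 arrays of these times, those of Gadd45b and Snai1, a fact noticed after their values were seen. Gadd45b, a growth-arrest and stress protein of the TGF-β response, stood at 2.92, 2.64 and 2.23 at 1 h, 2.48, 2.18 and 2.98 at 2 h and 2.79, 1.78 and 2.73 at 4 h. Its change was -0.17 ± 0.40 (95% interval -0.97 to 0.64, limma adjusted p = 0.998). Snai1, a repressor that drives the loss of epithelial genes, stood at 2.53, 3.21 and 2.65 at 1 h, 1.94, 1.59 and 2.62 at 2 h and 2.26, 1.90 and 2.13 at 4 h. All its 4 h arrays lay below its 1 h arrays, but the change of -0.70 ± 0.36 was not called (interval -1.42 to 0.024, limma adjusted p = 0.57).

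Among ligands, Hbegf, a growth factor that activates the EGF receptor, was the one known TGF-β target that was called. Its arrays read 1.56, 1.78 and 0.91 at 1 h, 2.60, 1.31 and 3.28 at 2 h and 4.65, 1.88 and 3.05 at 4 h, so every array was above 0 and the 4 h arrays lay above the 1 h arrays. The change was 1.78 ± 0.46 (limma adjusted p = 0.0446), and with the replicate number as a block the adjusted p was 0.0554. Leaving out 1 array moved it between 1.05 and 2.44, and it was called in 2 of those 6 fits. In the list of growth factors and cytokines it was the 1 called of 9 tested probes, and 7 of the 9 were above 0 with a median of 0.43. Among 14 tested probes of known TGF-β-induced targets it was again the 1 called, 9 were above 0 and the median was 0.29. Ccn1, a matricellular target also called Cyr61, averaged 1.98 ± 1.09 at 4 h and 0.92 ± 0.62 at 1 h (SD, n = 3 each), and its groups overlapped (change 1.06 ± 0.55, limma adjusted p = 0.572).

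Of the receptors and Smads, Smad3 was called, and it fell. Its probe read -0.15, 0.17 and 0.19 at 1 h, 0.039, 0.35 and 0.10 at 2 h and -0.40, -0.55 and -0.77 at 4 h. The 3 arrays at 4 h were the lowest of the 9, and the whole fall came between 2 and 4 h, a step of -0.73 (limma adjusted p = 0.014). The change between 4 and 1 h was -0.64 ± 0.16 (limma adjusted p = 0.0422). The other 2 Smad3 probes gave -0.42 ± 0.64 and -0.38 ± 0.70 and were not called. In S2KO cells Smad3 is the remaining receptor-activated Smad of the TGF-β branch, and its ratio fell late in these cells, which by the published design lack the other one.

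Receptor genes did not pass the test. Tgfbr1, the type I receptor, read -0.32, 0.38 and 0.14 at 1 h, 1.35, 0.18 and 1.09 at 2 h and 1.69, 0.18 and 1.06 at 4 h, with replicates 1 and 3 above 1 from 2 h on and replicate 2 at 0.18 at both times. Its change was 0.91 ± 0.34 (limma adjusted p = 0.279). Tgfbr3, the co-receptor betaglycan, changed by -1.03 ± 0.37 (limma adjusted p = 0.261), with 4 h arrays at -1.40, 0.13 and -1.81 and 1 h arrays at 0.11, -0.25 and 0.14. On this probe too replicate 2 lay apart from the other 4 h arrays. Further Tgfbr3 probes gave -0.80 ± 0.31 and -0.75 ± 0.52 and were not called. On the latter the 4 h arrays lay close together, at -1.29, -1.21 and -1.61. Eng, the co-receptor endoglin, changed by 0.26 ± 0.44 (interval -0.63 to 1.15). Of 18 tested probes for ligands, receptors and Smads, 1 was lower by the test and none higher, the median was -0.32, and 5 were above the median of all probes, both with centring and without. Without 4 h replicate 2, 1 of these probes was higher and 3 lower by the test.

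None of the 25 tested probes for feedback inhibitors and corepressors was called, and 13 were above 0 with a median of 0.021. Skil, the corepressor SnoN, averaged 1.52 ± 1.02 at 4 h and 0.66 ± 0.41 at 1 h (SD, n = 3 each). Its replicate 2 read 0.23, 0.24 and 0.41 at 1, 2 and 4 h, while replicates 1 and 3 reached 1.72 and 2.42 at 4 h (change 0.86 ± 0.29, limma adjusted p = 0.193). Smurf1, a ubiquitin ligase that removes receptors and Smads, was above 0 on all 9 arrays and changed by 0.59 ± 0.21 (limma adjusted p = 0.231). Tgif1, a homeodomain corepressor of Smads, changed by 0.13 ± 0.24 (interval -0.35 to 0.61). Klf10, a zinc-finger repressor induced early by TGF-β, was high at both ends and low in the middle. It read 1.24, 0.49 and 1.66 at 1 h, 0.056, 0.17 and 0.26 at 2 h and 1.304, 0.57 and 1.39 at 4 h, and neither step was called (limma adjusted p = 0.30 between 2 and 1 h and 0.17 between 4 and 2 h). Id4, an inhibitor of helix-loop-helix factors, averaged 0.57 ± 1.02 at 4 h and 1.87 ± 1.64 at 1 h (SD, n = 3 each, limma adjusted p = 0.544). For Smad7, the inhibitory Smad, one probe gave 1.45 ± 1.14 (interval -0.86 to 3.76) and the other, with a smaller error, -0.21 ± 0.28, and neither was called.

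**Figure D2:**
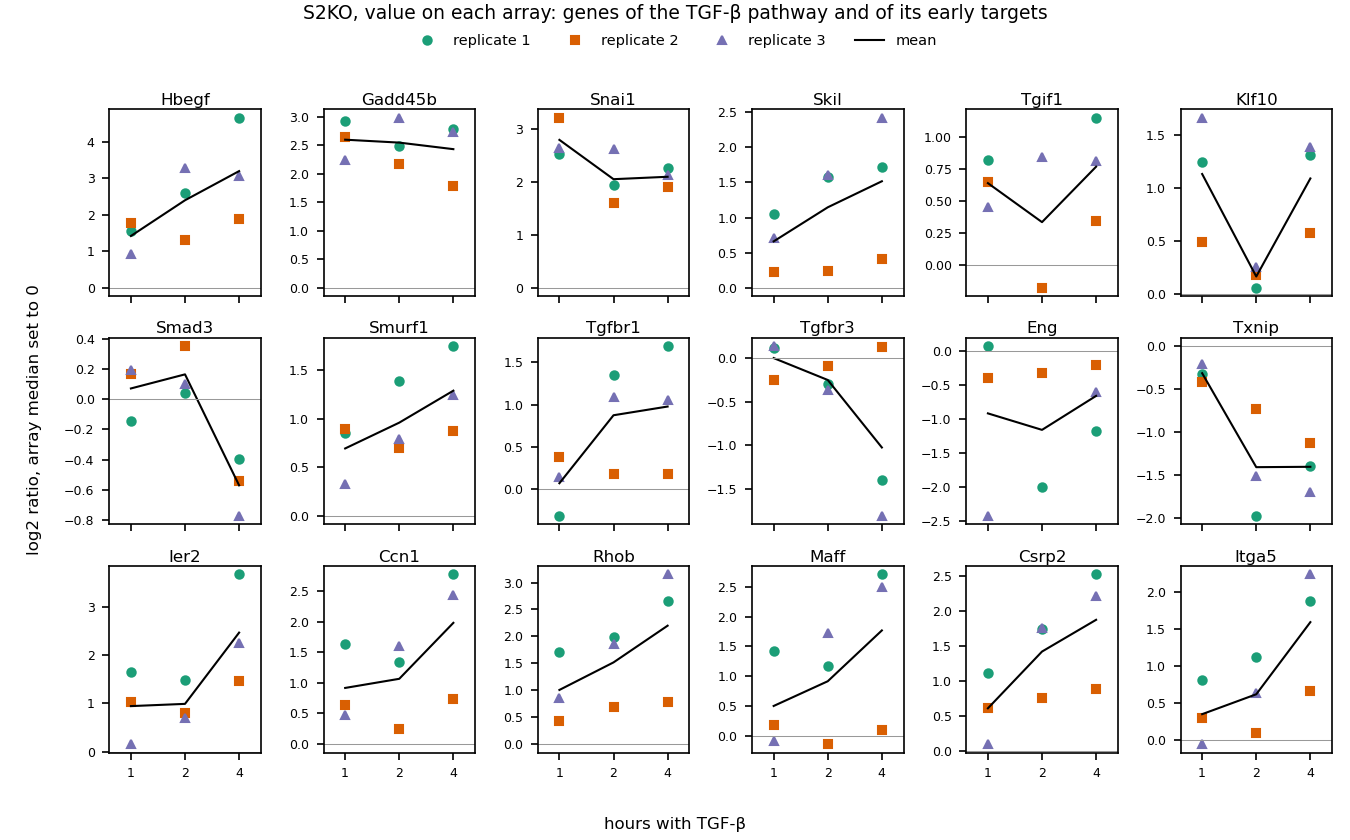
Log2 ratio of 18 genes of the TGF-β pathway and its early targets on each S2KO array at 1, 2 and 4 h (horizontal axis), with a symbol for each replicate number and the mean as a line. Hbegf climbs, Smad3 drops after 2 h, Gadd45b stays above 1 on every array, and replicate 2 is the lowest 4 h array in genes such as Skil, Csrp2 and Rhob.

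Among immediate early genes, Myc was the 1 called of 20 tested probes. Myc, a transcription factor that promotes growth and is normally repressed by TGF-β in epithelial cells, averaged -0.22 ± 0.19 at 1 h, 0.30 ± 0.74 at 2 h and 1.56 ± 0.95 at 4 h (SD, n = 3 each). Its 4 h arrays read 1.67, 0.55 and 2.45 and its highest 1 h array 0, so the groups did not overlap. The change was 1.78 ± 0.37 (limma adjusted p = 0.0109). The list spread widely, with 11 of 20 above 0, a median of 0.61 and a range of -1.67 to 1.78. Without 4 h replicate 2, 5 of 18 tested probes were higher and 1 lower by the test, and the median was 1.26. Ier2, an early nuclear regulator, read 1.65, 1.02 and 0.15 at 1 h, 1.48, 0.80 and 0.69 at 2 h and 3.67, 1.46 and 2.26 at 4 h, and the groups overlapped by 1 array. It was not called (change 1.52 ± 0.46, limma adjusted p = 0.121) but passed with the replicate block (adjusted p = 0.0365). Rhob, a small GTPase, and Maff, a small Maf factor, changed by 1.19 ± 0.42 and 1.27 ± 0.42 (limma adjusted p = 0.222 and 0.179). In both, replicate 2 at 4 h lay within the range of the 1 h arrays.

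Nearly all probes of the actin and contractile list lay above 0. Of 23 tested probes 22 were above 0, against 52.1% of all probes tested, and the median was 0.46 against 0.022. The 23 probes measure 12 genes, so some are repeat probes of the same gene and not separate members. Above the median of all probes were 22 with centring, 22 without it and 21 with scaling. Without 4 h replicate 2 the list's median was 0.77. By the test 2 were higher, Csrp2 and Itga5, and none lower. Csrp2, a LIM-domain protein of the contractile apparatus, read 1.12, 0.61 and 0.097 at 1 h, 1.75, 0.76 and 1.76 at 2 h and 2.53, 0.89 and 2.22 at 4 h. Within each replicate number the value was higher at 4 h than at 1 h, although replicate 2 at 4 h lay below replicate 1 at 1 h. Its change was 1.27 ± 0.33 (limma adjusted p = 0.0448). Itga5, the alpha subunit of the fibronectin receptor, read 0.81, 0.29 and -0.06 at 1 h, 1.12, 0.096 and 0.63 at 2 h and 1.88, 0.66 and 2.25 at 4 h. It lay just inside the threshold (change 1.25 ± 0.33, limma adjusted p = 0.0486), and its groups too overlapped through replicate 2 at 4 h. Actn1, which crosslinks actin, averaged 0.88 ± 0.23 at 4 h and 0.12 ± 0.067 at 1 h (SD, n = 3 each) without overlap, but was not called (limma adjusted p = 0.179). Flna, another crosslinker, changed by 0.69 ± 0.27 (limma adjusted p = 0.299).

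Further called genes have roles in adhesion and the cytoskeleton but were on no list, and they are given because they passed the test. Cd44, the hyaluronan receptor, read -0.78, -0.50 and -0.62 at 1 h, -0.15, 0.22 and 0.31 at 2 h and 0.95, -0.14 and 1.09 at 4 h, below 0 on every 1 h array and without overlap (change 1.26 ± 0.27, limma adjusted p = 0.0146). Fhl2, a LIM-domain cofactor found at adhesions and in the nucleus, changed by 1.22 ± 0.28 (limma adjusted p = 0.0202), from 4 h arrays at 1.75, 0.69 and 2.10 and 1 h arrays at 0.74, 0.23 and -0.087. Its groups overlapped by replicate 2 of 4 h. Fermt2, kindlin-2, which activates integrins, changed by 0.83 ± 0.21 (limma adjusted p = 0.0422) without overlap. Mical2, an enzyme that oxidises actin, changed by 1.18 ± 0.31 (limma adjusted p = 0.0463), with replicate 2 at 4 h below 2 of the 1 h arrays. Wwtr1, the co-activator TAZ, changed by 0.77 ± 0.20 (limma adjusted p = 0.0486) without overlap. Of the 36 tested probes of the fixed list of extracellular matrix and protease genes none was called, 21 were above 0 and the median was 0.12.

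The promoters of the called genes were searched for 4 short motifs in windows of 250 bases before to 50 after each start, taken from RefSeq on the build GRCm38.p6. Windows were found for 40 of the 50 genes with a single symbol, 48 windows in all. The searched letters on both strands were CAGACA (the CAGA box of Smads), TGANTCA (AP-1), CACGTG (E-box) and the CArG box of the serum response factor. The CAGA box was in 20.8% of these windows and in 21% of all 32851 mouse windows, AP-1 in 4.17% against 7.81%, the E-box in 12.5% against 7.15%, and the CArG box in 6.25% against 1.63%. The CArG count is 3 windows of 2 genes, both start windows of Fhl2 and that of Fermt2. A match of letters is a description and shows neither binding nor use.

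Both Fhl2 windows, on the minus strand at chr1:43196712-43197011 and chr1:43163912-43164211, and the Fermt2 window, on the minus strand at chr14:45530016-45530315, are shown because they hold that box, in capitals, in genes called higher at 4 h than at 1 h.
Fhl2, first window: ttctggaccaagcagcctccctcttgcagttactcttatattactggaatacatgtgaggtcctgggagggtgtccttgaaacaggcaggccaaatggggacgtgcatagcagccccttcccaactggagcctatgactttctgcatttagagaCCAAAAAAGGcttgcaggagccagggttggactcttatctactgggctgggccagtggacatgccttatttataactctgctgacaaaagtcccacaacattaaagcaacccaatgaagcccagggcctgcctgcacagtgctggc
Fhl2, second window: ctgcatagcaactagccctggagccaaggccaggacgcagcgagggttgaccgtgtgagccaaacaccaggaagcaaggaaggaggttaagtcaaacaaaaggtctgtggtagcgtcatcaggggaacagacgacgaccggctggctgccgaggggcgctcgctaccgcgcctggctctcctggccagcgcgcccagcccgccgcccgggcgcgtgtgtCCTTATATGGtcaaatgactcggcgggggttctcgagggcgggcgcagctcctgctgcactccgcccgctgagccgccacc
Fermt2: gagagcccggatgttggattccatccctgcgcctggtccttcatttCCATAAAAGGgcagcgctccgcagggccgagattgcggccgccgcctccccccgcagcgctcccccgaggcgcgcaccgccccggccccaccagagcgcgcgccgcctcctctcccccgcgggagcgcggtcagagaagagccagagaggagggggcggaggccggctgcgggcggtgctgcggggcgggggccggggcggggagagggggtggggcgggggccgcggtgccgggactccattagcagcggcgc
The window of Osmr, on the minus strand at chr15:6874264-6874563, is shown for its AP-1 letters, and that of the clock gene Cry1, on the minus strand at chr10:85185005-85185304, for its E-box, each again in capitals.
Osmr: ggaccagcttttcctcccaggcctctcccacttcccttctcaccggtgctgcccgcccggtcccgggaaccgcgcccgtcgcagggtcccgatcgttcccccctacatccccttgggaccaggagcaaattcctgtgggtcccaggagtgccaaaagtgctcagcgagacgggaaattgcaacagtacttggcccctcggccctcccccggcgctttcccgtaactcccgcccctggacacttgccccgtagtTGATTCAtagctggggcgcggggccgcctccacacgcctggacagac
Cry1: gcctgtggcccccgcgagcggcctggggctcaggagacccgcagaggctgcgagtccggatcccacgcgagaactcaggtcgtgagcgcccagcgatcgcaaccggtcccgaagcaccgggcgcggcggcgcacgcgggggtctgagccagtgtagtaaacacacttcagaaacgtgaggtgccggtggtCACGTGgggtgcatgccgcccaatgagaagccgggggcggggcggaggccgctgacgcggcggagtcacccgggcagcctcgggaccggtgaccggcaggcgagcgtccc

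Osmr, the receptor of the cytokine oncostatin M, was low at 1 h and above 0 on all arrays at 4 h. It read -0.32, -1.89 and -0.23 at 1 h, 0.51, -0.51 and 0.087 at 2 h and 0.68, 0.42 and 0.49 at 4 h, with 1 h replicate 2 far below the others (change 1.34 ± 0.34, limma adjusted p = 0.0422). Cry1, a repressor of the circadian clock, was below 0 on all 1 h arrays and above it on all 4 h arrays. It read -0.29, -0.19 and -0.15 at 1 h, -0.043, -0.098 and 0.017 at 2 h and 0.78, 0.42 and 1.23 at 4 h, and its change was 1.02 ± 0.26 (limma adjusted p = 0.0446). It was the 1 called of 22 tested probes for circadian and helix-loop-helix regulators, of which 11 were above 0. Bhlhe40, a clock-related repressor induced by TGF-β, changed by 0.64 ± 0.34 between 4 and 1 h (limma adjusted p = 0.611) and by 1.34 between 4 and 2 h, a step that was called (limma adjusted p = 0.042). Noct, a circadian deadenylase-like protein, changed by 1.05 ± 0.39 (limma adjusted p = 0.264).

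The smallest p for the change between 4 and 1 h was that of Kif26b, a kinesin-family protein. It read 0.097, 0.18 and -0.94 at 1 h, 0.58, -0.30 and 0.45 at 2 h and 1.75, 0.76 and 2.52 at 4 h, and every 4 h array lay above every 1 h and 2 h array. Its change was 1.89 ± 0.28 (limma adjusted p = 0.000102). Kif26b and Tmem53 were the 2 genes called in each of the 6 fits that left out 1 array. One St8sia2 probe was called in the 4 such fits in which it could be tested, while the gene's second probe, described with the falls, had the opposite sign. The other 47 called genes lost the call of a probe in at least 1 of these fits. Scaled to a common spread, the arrays gave 4 calls, Kif26b, Wdr75, Pbk and Tmem53.

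Called rises also included factors for ribosomes, translation and secretion, chosen here by their call and not from a list. Wdr75, a factor of ribosomal RNA processing, was low on all 1 h arrays and returned to 0. It read -1.12, -1.43 and -1.51 at 1 h, -0.37, -0.68 and 0 at 2 h and 0.25, -0.46 and 0.34 at 4 h (change 1.39 ± 0.27, limma adjusted p = 0.00531), and its second probe gave 0.69 ± 0.43. Nolc1, a nucleolar phosphoprotein, and Nip7, a factor for the large ribosomal subunit, changed by 1.21 ± 0.31 and 0.87 ± 0.20 (limma adjusted p = 0.0444 and 0.0238). Eif1a, a translation initiation factor, changed by 0.87 ± 0.20 (limma adjusted p = 0.02), and Timm17a, a subunit of the mitochondrial import channel, by 0.81 ± 0.18 (limma adjusted p = 0.0175). In the secretory pathway, Srprb, a subunit of the signal recognition particle receptor, changed by 0.73 ± 0.19 and Manf, a protein induced by stress of the endoplasmic reticulum, by 0.89 ± 0.23 (limma adjusted p = 0.0448 and 0.0448). Structural ribosomal proteins had 0 called of 18 tested probes with a median of 0.24 and 14 above 0. Proteasome subunits had 0 called of 18 with a median of 0.26 and 16 above 0, and the respiratory chain 0 of 39 with a median of 0.18 and 27 above 0. With the arrays scaled to a common spread, 11 ribosomal, 16 proteasome and 21 respiratory chain probes were above 0, against 51.5% of all tested probes. The list medians were then 0.086, 0.21 and 0.072.

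Further rises of under 1.1 were those of Fam98a (0.83 ± 0.16), Pitpnb (0.99 ± 0.24), a phosphatidylinositol transfer protein, and Necap1 (0.68 ± 0.17), an endocytosis protein. To these come Wdr77 (0.72 ± 0.18), a partner of the arginine methyltransferase Prmt5, and Tbc1d1 (1.06 ± 0.27), a Rab GTPase-activating protein. The 4 h and 1 h arrays overlapped in Pitpnb and Necap1. Leaving out 1 array took Pitpnb to 0.49 and Necap1 to 0.44 at the lowest. The limma adjusted p of these 5 genes lay between 0.00702 and 0.0448. With the replicate block the adjusted p was 0.0554 for Necap1, 0.0577 for Wdr77 and 0.0632 for Tbc1d1, above the threshold. Fam98a dipped at 2 h before it rose. It read -0.32, 0.048 and -0.12 at 1 h, -0.555, -0.85 and -0.80 at 2 h and 0.77, 0.47 and 0.85 at 4 h. Its step between 4 and 2 h was 1.43 (limma adjusted p = 9.8e-08). The step between 2 and 1 h, -0.61, was not called (limma adjusted p = 0.15).

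Pbk, a mitotic kinase, was far below 0 at the first times and at 0 at 4 h. It read -2.88, -2.08 and -0.85 at 1 h and -1.92 and -3.18 on the 2 arrays that measured it at 2 h, and 0.013, -0.12 and -0.26 at 4 h. The 4 h arrays lay close together and above all others (change 1.82 ± 0.34, limma adjusted p = 0.0045), and the second Pbk probe gave 0.88 ± 0.39. It was the 1 called of 15 tested mitosis probes, of which 11 were above 0 with a median of 0.20. Of 23 tested probes for DNA replication and G1/S genes none was called, and the nearest was Ccne1, cyclin E1, at 1.12 ± 0.31 (limma adjusted p = 0.0734), whose second probe gave -0.27 ± 0.34. Ccnd1, cyclin D1, averaged -0.31 ± 0.16 at 4 h and 0.28 ± 0.51 at 1 h (SD, n = 3 each, limma adjusted p = 0.966).

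Several of the largest rises rested on few arrays or on 1 of 2 probes. Neil3, a DNA repair glycosylase, had 2 values at each end, 1.33 and 1.64 at 4 h and -1.61 and -4.96 at 1 h (change 4.77 ± 1.12, limma adjusted p = 0.0357). Flt1, a receptor of VEGF, read -2.77, -2.48 and -5.53 at 1 h, -0.58, -0.91 and -0.26 at 2 h and 0.43, -0.20 and 2.17 at 4 h, and kept the order of times on all arrays (change 4.39 ± 0.95, limma adjusted p = 0.0175). Its second probe gave 0.65 ± 0.36 and was not called. Tlr7, a sensor of single-stranded RNA, was high on 2 of 3 arrays at 4 h, with 5.02, -0.18 and 3.67, against -0.83, -0.51 and -0.86 at 1 h (change 3.58 ± 0.69, limma adjusted p = 0.00531). Cbs, the first enzyme of transsulfuration, read 4.48, 2.88 and 1.64 at 4 h and 1.02, 0.18 and -1.05 at 1 h (change 2.95 ± 0.70, limma adjusted p = 0.0354), while its second probe gave -0.020 ± 0.84. Eif2ak3, the stress kinase PERK, rested in its change of 2.41 ± 0.59 (limma adjusted p = 0.0357) on 4 h replicate 3 at 6.29, with the other 4 h arrays at 0.71 and 0.11 and the second probe at 0.17 ± 0.79. Without that array the change was 0.45.

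Pdha1, a subunit of pyruvate dehydrogenase, moved early. It read -1.84, -0.44 and -0.19 at 1 h, 1.98, 0.83 and 0.85 at 2 h and 1.66, 0.21 and 1.77 at 4 h, so the rise was complete by 2 h (step between 2 and 1 h of 2.04, limma adjusted p = 0.0023). Its second probe gave 0.020 ± 0.42 between 4 and 1 h. The probe of Mbp, the myelin basic protein gene, also moved mainly before 2 h, with means of -0.31, 0.92 and 1.17 at 1, 2 and 4 h (change 1.48 ± 0.31, limma adjusted p = 0.0109). Its second probe, with 2 arrays at each end, gave -0.77 ± 0.71.

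**Figure D3:**
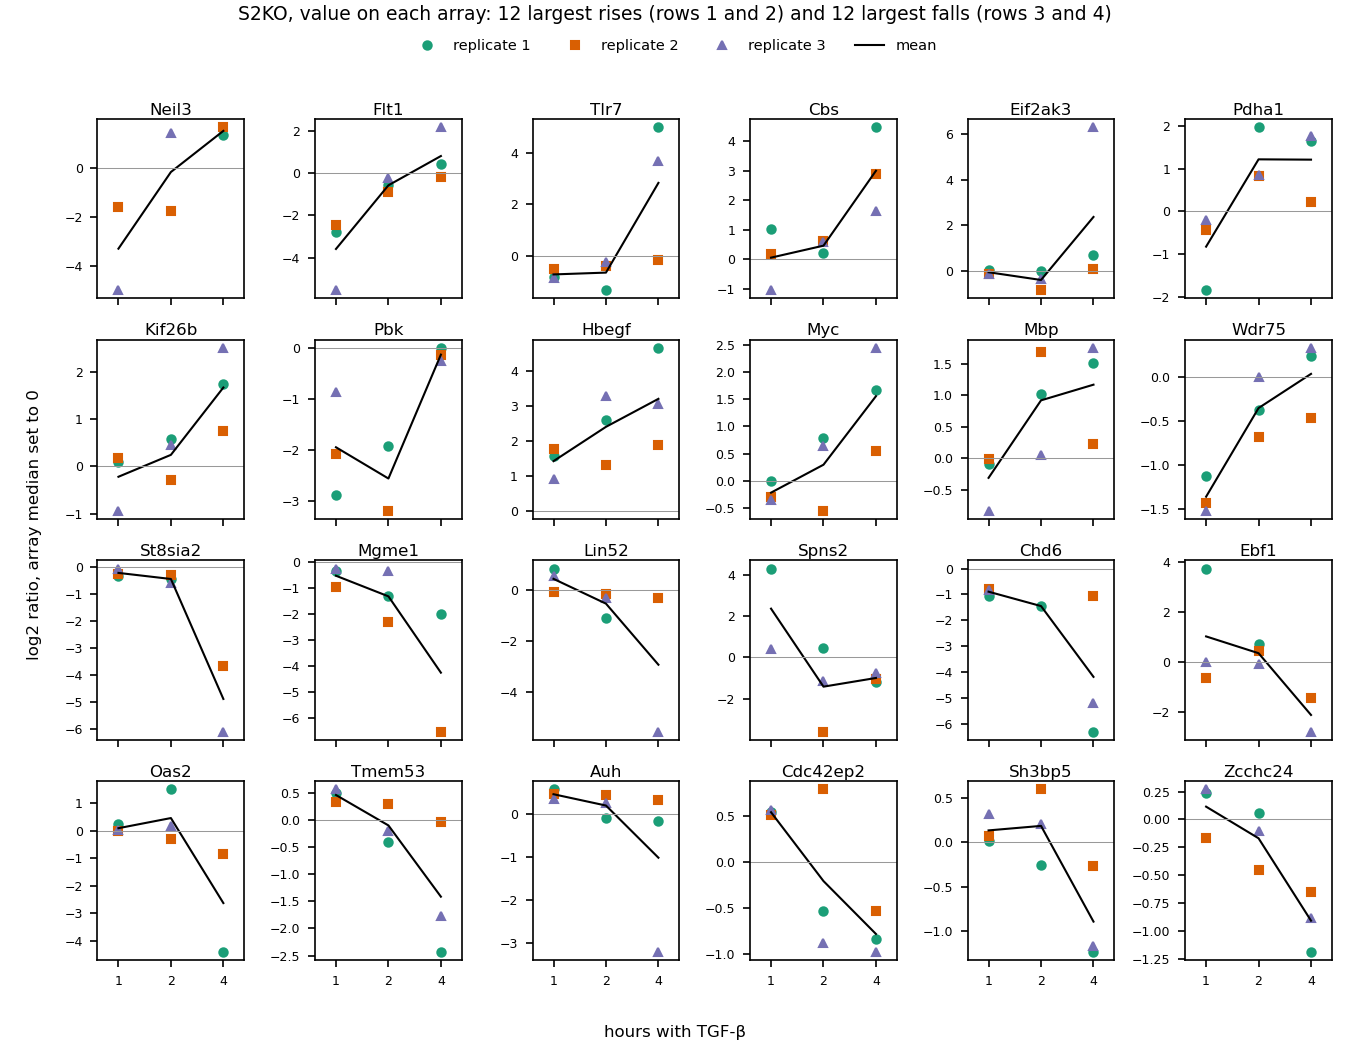
Log2 ratio on each S2KO array at 1, 2 and 4 h (horizontal axis) for the 12 largest rises (upper 2 rows) and the 12 largest falls (lower 2 rows) among called genes without overlap of the 4 h and 1 h arrays, with the mean as a line. Most falls have their larger step after 2 h, the longer interval, and replicate 2 often lies nearest to the 1 h arrays at 4 h, as in Tlr7, Chd6 and Tmem53.

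The larger step came after 2 h, which is also the longer interval, in 18 of the 25 lower probes. Tmem53, a transmembrane protein, read 0.49, 0.33 and 0.57 at 1 h, -0.40, 0.30 and -0.20 at 2 h and -2.44, -0.038 and -1.76 at 4 h, and its change of -1.88 ± 0.31 had the smallest p of the falls (limma adjusted p = 0.000645). St8sia2, which adds polysialic acid to cell-surface proteins, was near 0 until 2 h and read -3.67 and -6.08 on the 2 arrays that measured it at 4 h (change -4.66 ± 0.99, limma adjusted p = 0.0146). A second St8sia2 probe went the other way, with a mean of 1.31 over 3 arrays at 4 h and -0.63 on the 1 array that measured it at 1 h, too few to be tested. Mgme1, a mitochondrial DNA exonuclease, had 2 values at 4 h, -1.99 and -6.54, against -0.35, -0.96 and -0.24 at 1 h (change -3.75 ± 0.84, limma adjusted p = 0.02). Chd6, a chromatin remodeller, read -6.30, -1.05 and -5.21 at 4 h and -1.05, -0.80 and -0.84 at 1 h, again with replicate 2 near the 1 h arrays (change -3.29 ± 0.76, limma adjusted p = 0.0263). The second Chd6 probe gave -0.51 ± 0.34 and was not called.

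Cdc42ep2, an effector of the GTPase Cdc42, fell with little spread at either end. Its 4 h arrays lay at -0.83, -0.53 and -0.98 and its 1 h arrays at 0.55, 0.52 and 0.57 (change -1.32 ± 0.30, limma adjusted p = 0.0202). At 2 h they split, with -0.53, 0.80 and -0.87. Zcchc24, a zinc-finger protein, was called on 2 of its 3 probes, with changes of -1.02 ± 0.20 and -0.78 ± 0.20 (limma adjusted p = 0.00727 and 0.048), while the third gave -0.11 ± 0.22. Sh3bp5, an SH3-domain-binding protein, changed by -1.03 ± 0.26 (limma adjusted p = 0.0422), all of it after 2 h. Auh, an enzyme of leucine breakdown that also binds RNA, fell through 4 h replicate 3 at -3.22, with the other 4 h arrays at -0.16 and 0.33 and the 1 h arrays at 0.58, 0.46 and 0.35 (change -1.48 ± 0.35, limma adjusted p = 0.0263). Without that array its change was -0.38. Magee1 had the same form, with 4 h arrays at -0.74, -0.34 and -4.47 (change -1.58 ± 0.41, limma adjusted p = 0.0448), and its groups overlapped.

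Nos1, neuronal nitric oxide synthase, changed by -0.98 ± 0.21, Tsc22d3, a glucocorticoid-induced leucine zipper protein, by -0.82 ± 0.20, and Hmgn3, a nucleosome-binding protein, by -0.78 ± 0.20 (limma adjusted p = 0.0146, 0.0414 and 0.0429). None of these overlapped. Of the 3 probes that were high first and lower later, Spns2, a transporter of sphingosine-1-phosphate, had 4 h values of -1.18, -1.04 and -0.76 and 1 h values of 4.30 and 0.42 (change -3.35 ± 0.73, limma adjusted p = 0.0188). Gm4952 read -3.79, 0.13 and -0.80 at 4 h and also had just 2 values at 1 h, 3.53 and 1.45 (change -3.97 ± 0.89, limma adjusted p = 0.0202). Hdac5, a histone deacetylase, had all 3, with 1.42, 0.32 and 0.49 at 1 h, 0.098, 0.61 and 0.54 at 2 h and -0.38, 0.27 and -0.47 at 4 h (change -0.94 ± 0.23, limma adjusted p = 0.0376). Its means at 0 and 0.3 h were 0.68 and 0.36, so it was above 0 before 1 h as well. The second Hdac5 probe gave -0.50 ± 0.27 and was not called. No other lower probe was farther from 0 at 1 h than at 4 h.

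In 4 falls the call was lost with the replicate number as a block, 3 of them of named genes. Ebf1, a transcription factor, changed by -3.13 ± 0.78 (limma adjusted p = 0.0422, or 0.114 with the block; second probe -1.42 ± 0.50), with 4 h values of -1.45 and -2.77, 1 h replicate 1 at 3.72 and the other 1 h arrays at -0.65 and -0.019. Oas2, an interferon-induced antiviral enzyme, changed by -2.72 ± 0.68 (limma adjusted p = 0.0422, or 0.0554; second probe -1.68 ± 0.97) on 4 h values of -4.42 and -0.85 against 0.24, -0.01 and 0.03 at 1 h. Lin52, a subunit of a cell-cycle repressor complex, changed by -3.38 ± 0.87 (limma adjusted p = 0.0486, or 0.0745) on 4 h values of -0.30 and -5.56 against 0.86, -0.056 and 0.55 at 1 h. The interferon list, which does not hold Oas2, had 0 called of 17 tested probes, with a median of -0.41, and 2 were above the median of all probes, both with centring and without. Its nearest member was Tap1, the antigen peptide transporter, which averaged -0.69 ± 0.36 at 4 h and 0.34 ± 0.27 at 1 h without overlap (SD, n = 3 each, limma adjusted p = 0.16).

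The threshold fell between similar genes. Just inside were Itga5, Wwtr1 and Lin52 (limma adjusted p = 0.049 each), and just outside Trim68 (0.053) and Txnip (0.058). Txnip, an inhibitor of thioredoxin and of glucose uptake, read -0.32, -0.42 and -0.21 at 1 h, -1.98, -0.74 and -1.52 at 2 h and -1.39, -1.13 and -1.70 at 4 h, with every later array below every 1 h array. Its change of -1.09 ± 0.29 passed with the replicate block (limma adjusted p = 0.0493), while its second probe gave -0.33 ± 0.49. The remaining lists, stress and unfolded protein response and cholesterol and lipid synthesis, had 0 called of 15 and 16 tested probes, with medians of 0.14 and -0.040.

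**Figure D4:**
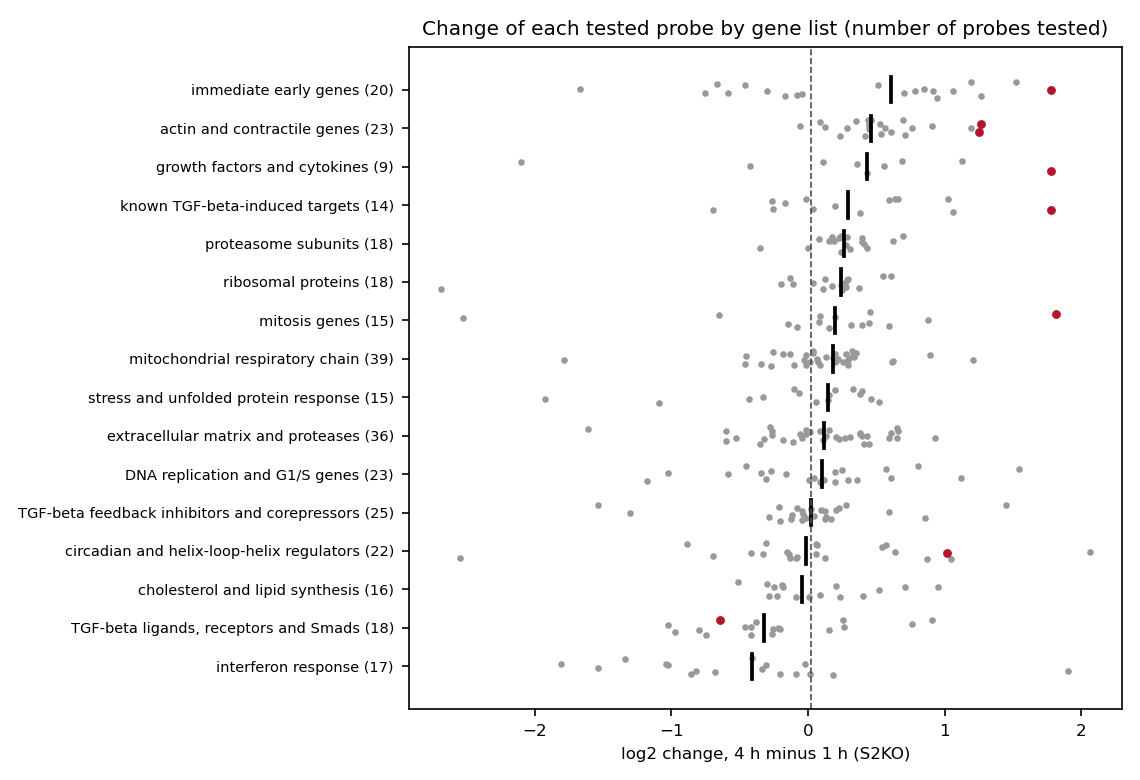
Change between 4 and 1 h in S2KO for each tested probe of the gene lists with 9 or more tested probes, with called probes in red, list medians as black bars and the median of all tested probes as a dashed line. The actin and contractile list lies nearly all to the right of the line, and the list of ligands, receptors and Smads mostly to the left. Some genes have more than 1 probe, so points of a list are not all separate genes.

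Whether S2KO differed from wild-type lines in these changes was tested as a difference of changes. No probe was called: limma called 0 of 8281 probes against S2WT (0%) and 0 of 8295 against S3WT (0%), with 339 and 360 at an unadjusted p under 0.05 and smallest adjusted p of 0.34 and 0.16. With the replicate block 2 probes were called against S2WT and 3 against S3WT. Of those, Pbk differed by 2.04 from both lines (limma adjusted p = 0.042 and 0.029 with the block), as its own change was 1.82 ± 0.34 in S2KO, -0.22 ± 0.34 in S2WT and -0.22 ± 0.34 in S3WT. Ier2 differed by 2.69 from S3WT (limma adjusted p = 0.029 with the block), where its change was -1.17 ± 0.46. A probe without a gene symbol went the other way, by -1.69 against S2WT and -1.53 against S3WT (limma adjusted p = 0.0025 and 0.016 with the block). It had 2 values at 1 h in S2KO, -0.533 and 1.035. The S2WT arrays titled 4 h may be 2 h arrays, so the difference from S2WT may compare unequal times.

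By itself the change between 4 and 1 h gave 0 higher and 2 lower calls in S2WT and 4 higher and 1 lower in S3WT, fewer than in S2KO, but the numbers of calls were not tested against each other. Of the 64 probes called in S2KO, 52 (81.2%) changed in the same direction in S2WT and 52 in S3WT, against 58.3% and 57.1% of all tested probes. Kif26b was called in S3WT as well (1.40 ± 0.28, limma adjusted p = 0.020) and reached 1.23 ± 0.28 in S2WT (limma adjusted p = 0.051). Zcchc24 was called in S2WT (-1.01 ± 0.20, limma adjusted p = 0.043). Hbegf changed by 1.23 ± 0.46 in S2WT and 0.47 ± 0.46 in S3WT, Myc by 0.78 ± 0.37 and -0.13 ± 0.37, and Smad3 by -0.31 ± 0.16 and -0.53 ± 0.16. None of these was called in the wild-type lines, and for none was the difference from S2KO called. For Smad3 the difference from S2WT was -0.33 (95% interval -0.79 to 0.13) and from S3WT -0.11 (95% interval -0.57 to 0.35). Skil changed by 0.86 ± 0.29 in S2KO, -0.20 ± 0.29 in S2WT and -0.60 ± 0.29 in S3WT, and its difference from S3WT was not called. Without 4 h replicate 2 of S2KO, 5 probes differed from S2WT and 14 from S3WT by the test. Without 4 h replicate 1 or without 4 h replicate 3, 0 differed from either line. Replicate 2 was singled out on the called probes of this same change, so leaving it out tends to enlarge the change. The calls without it are therefore a description and do not show a difference between lines.

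**Figure D5:**
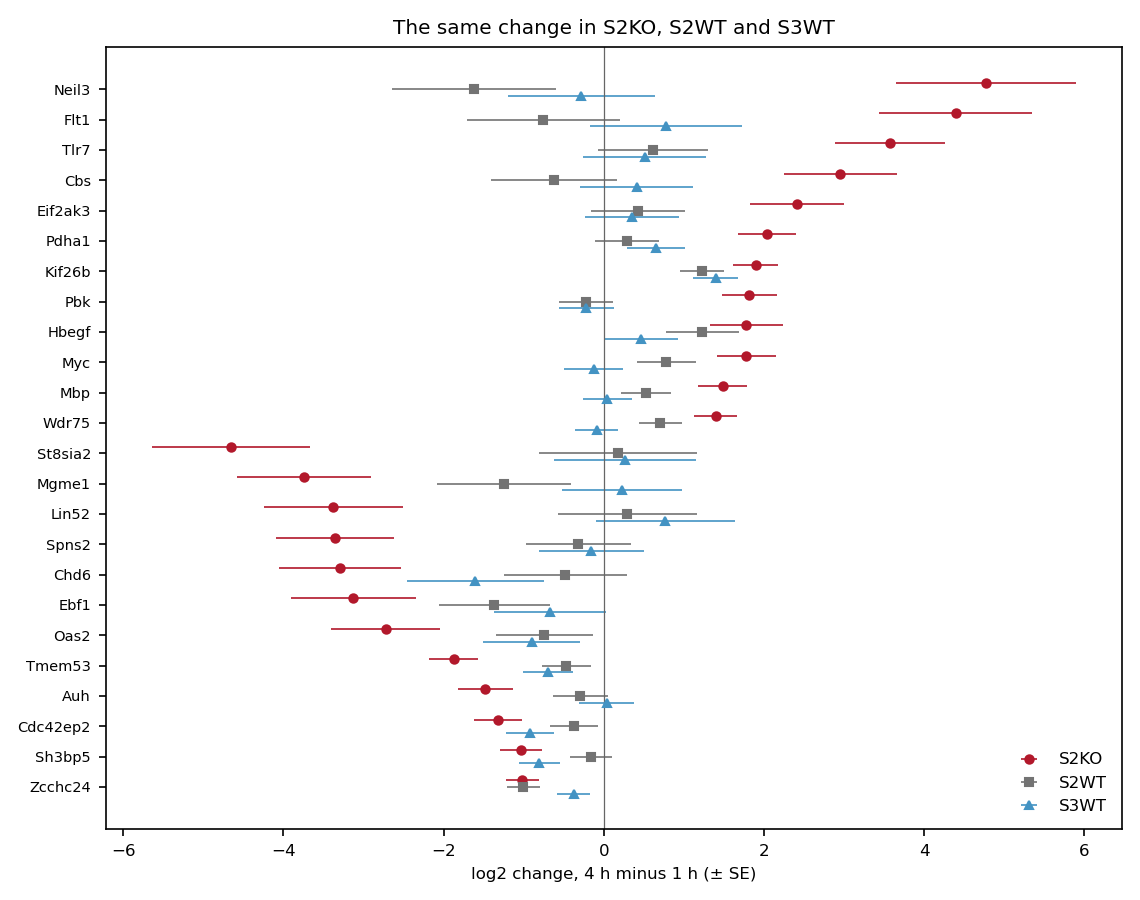
Change between 4 and 1 h (horizontal axis, log2, bars ± SE) of the 24 genes with the largest called changes, in S2KO, S2WT and S3WT. The genes were chosen for their S2KO change, and in all 24 both wild-type lines lie closer to 0 than S2KO.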

How the data were processed

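Dual-channel mouse arrays at 5 times (74 arrays) were used, of the lines S2KO, S2WT, S3KO and S3WT and of a set titled S2WT_vs_U0126. The deposited values are log2 ratios per probe, as the authors deposited them in the series' value table. For dyes, scanner and normalization, nothing is stated in the labels or the table. The signal behind a ratio is unknown, so the number of arrays limits the precision. Values above 16.6 (1344 values at a ceiling of 16.61) were set to missing, 41670 were blank, and each array was centred on its median. Of 8976 probes, 7348 have 1 gene symbol in the platform annotation, 399 several and 1229 none, and 7274 of the single symbols are in RefSeq.

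A linear model with 25 group means (limma 3.58.1 in R 4.3.3) was fitted to all 74 arrays and tested by moderated statistics. Probes needed 2 or more values in each group, and a probe was called at a Benjamini-Hochberg adjusted p under 0.05 over all tested probes. With 3 arrays against 3, an exact permutation test of 1 probe could not go below 0.1. Arrays of S2KO, S2WT and S3WT carry replicate numbers 1 to 3 in their titles. Over 5937 probes, deviations of S2KO arrays from their group means were correlated between times. Same-numbered arrays gave 0.12 to 0.31 (9 pairs) and different numbers -0.22 to 0.020. Deviations from a group mean sum to 0, so positive values for same numbers force negative ones for different numbers. The centred values of same-numbered arrays of different times correlated at 0.22 to 0.44, and those of arrays of the same time at 0.087 to 0.38. The numbers thus pair the arrays. The main fit does not use this pairing, so a fit with the number as a block was run as well. The code was tested on simulated data.

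The comparison, the gene lists and the genes named were chosen with earlier results of these data known. Named were the 12 largest rises and falls among called genes without overlap, up to 4 members of each list with the smallest p, a fixed set of TGF-β genes, and further called genes, which were chosen after their values were seen. For a gene on several probes, the one of lowest p stands for it. Alternatives were no centring, scaling to a common spread, complete probes only, fewer arrays in the fit, array weights, the replicate block, ceiling values kept, probes averaged by gene, and each array left out.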

Additional observations from a re-analysis of the deposited data

How the results depend on the processing

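Directions of most named genes held while calls did not. For the change between 4 and 1 h, the 64 calls became 209 without centring (196 higher and 13 lower, 51 shared), 4 with the arrays scaled to a common spread, 0 with the S2KO arrays alone in the fit and 0 with the 6 arrays alone (limma, 504 and 412 at an unadjusted p under 0.05). Leaving out 1 array gave 18 to 208 calls, the highest when 4 h replicate 2 was dropped, 34 on dropping 1 h replicate 3, and 18 on dropping any of 1 h replicate 1, 4 h replicate 1 and 4 h replicate 3. Complete probes, array weights, ceiling values kept and probes averaged by gene gave 56, 95, 62 and 46. For the step between 2 and 1 h, the 9 calls became 2 with scaling, 5 with complete probes and 0 with S2KO arrays alone (293 at an unadjusted p under 0.05), and 5 to 57 without 1 array. For the step between 4 and 2 h, the 67 calls became 33 without centring, 5 with scaling and 3 with S2KO arrays alone, and 29 to 198 without 1 array. For the differences from S2WT and S3WT, where no probe was called, array weights gave 1 and 7 calls, and leaving out 1 array gave 0 to 5 and 0 to 14. The causes were not tested.

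With the replicate number as a block, 68 probes were called between 4 and 1 h, of which 56 were among the 64, with 7 between 2 and 1 h, 85 between 4 and 2 h, and 2 and 3 for the differences from S2WT and S3WT. Among genes named, the changed calls stand beside their values above.

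Changes of uncalled genes near 0 turned sign: Gadd45b gave 0.13 without centring and -0.35 to 0.16 without 1 array, Klf10 gave 0.25 without centring, 0.069 with array weights and -0.36 to 0.22 without 1 array, Eng gave -0.50 to 0.75 and Tgif1 -0.062 to 0.34 without 1 array.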
